A study of Drosophila melanogaster with 23 samples.

Results

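Contacts of the X chromosome with autosomes were taken as all pairs of 10-kb bins with 1 bin on X below 22.5 Mb and the other on 2L below 22 Mb, on 3L below 23 Mb or on 3R above 4.2 Mb (dm6). These limits leave out the repeat-rich DNA next to the centromere and are called the proximal borders. They give 16398000 bin pairs of the 125619175 in the whole map, of which 16193685 had both bins covered in every map and were used. X was paired with 2L in 4950000 of all the bin pairs, with 3L in 5175000 and with 3R in 6273000.

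In Hi-C, DNA segments that lie close together in the nucleus are crosslinked, cut (here by DpnII, which recognises GATC) and ligated, and ligated pairs are counted as contacts. The 23 libraries fall into 7 groups, and 1 pooled map per group was deposited. How many of the HP1-KD libraries that group's map holds is not settled, since its name may mean that some were left out. HP1-KD embryos (5 libraries by the labels) came from mothers in which a maternal Gal4 driver (Bloomington #7063) activated a TRiP hairpin against heterochromatin protein 1 (Bloomington #33400). HP1-rescue embryos (3 libraries) carried the same hairpin together with pUASP::Flag-HA-HP1. H3K9M embryos (2 libraries) expressed pUASP::H3.3K9M, a histone H3 with methionine in place of lysine 9, under the same driver, and control embryos (7 libraries) came from Bloomington #36303. All embryos were hand-sorted at stage 5, the time of zygotic genome activation, after a 1 h collection and 2 h of ageing. S2 cells, a *Drosophila* line from late embryos, received HP1 dsRNA 1, HP1 dsRNA 2 or a control dsRNA against GST, with 2 libraries each. The driver acts in the female germ line, the depletion of HP1 is partial, embryos were offspring of sibling crosses and were pooled, and their sex was not given in the sources used here. Hi-C counts DNA contacts, so neither the depletion of HP1 nor the identity of the cells could be checked in these maps.

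In early *Drosophila* nuclei chromosomes keep the orientation of the preceding anaphase, with centromeres gathered at one pole and telomeres at the other. In this Rabl configuration arms run side by side, so loci at similar heights of different arms can meet. HP1 binds histone H3 methylated at lysine 9 and coats the repeats around the centromere, and the hairpin and the histone mutant interfere with different steps of that system. The comparisons address how far contacts between X and the other chromosomes depend on it at genome activation, and in S2 cells once the chromatin state is established. The X of *Drosophila* has its centromere at one end, so the border lies at the high coordinates, as on 2L and 3L, while on 3R it lies at the low ones.

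With 1 pooled map per group, no difference could be set against the spread between libraries and no test was made. Intervals and standard errors (SE) cover counting error only, and several are narrower than the differences that another scaling of the same map makes. In all, the long arms and chromosome 4 held between 34865771 contacts in the S2 control map and 299686858 in that of control embryos. Between X and the autosome arms they held 2524484 in HP1-KD, 917012 in HP1-rescue, 905178 in H3K9M and 4771171 in control embryos. In S2 cells they held 535202 with dsRNA 1, 631987 with dsRNA 2 and 388006 in S2 control. Values below are mean balanced contacts per 100 bin pairs, which is a square of 100 kb by 100 kb, with the total of each map set to 50000000.

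Among the strongest single bin pairs between X and autosomes were those with 2 eye-colour genes of X, *w* (white, an ABC transporter of eye pigment precursors) and *v* (vermilion, tryptophan dioxygenase). Both are also widely used as marker genes on fly transgenes. Contacts are read only at DpnII cuts, so for each gene the first cut site from its 5′ end that lies well inside a coding exon is shown, from the Release 6 reference, 5′ to 3′ on the gene's own strand, with GATC in capitals. The *w* site lies in a coding exon at chrX:2792659-2792718 on the minus strand, and the gene holds 24 GATC sites. The *v* site lies in a coding exon at chrX:10924618-10924677 on the plus strand, and the gene holds 18.
w: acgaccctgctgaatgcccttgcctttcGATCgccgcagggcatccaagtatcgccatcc
v: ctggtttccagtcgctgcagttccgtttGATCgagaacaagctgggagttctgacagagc
Cut sites averaged 28.7 per 10-kb bin on X, beside 26.3 on 2L, 27.3 on 3L and 26.9 on 3R.

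X met autosomes less often in all 3 altered groups of embryos than in control embryos, and within counting error of the control in S2 cells. Mean contact was 4.85 in HP1-KD embryos (SE 0.00829), 4.60 in HP1-rescue embryos (SE 0.0156) and 5.28 in H3K9M embryos (SE 0.0152), against 5.67 in control embryos (SE 0.0161). On the log2 scale this was -0.23 for HP1-KD (95% counting interval -0.23 to -0.22), -0.30 for HP1-rescue (-0.31 to -0.29) and -0.10 for H3K9M (-0.11 to -0.09). In S2 cells mean contact was 5.04 with dsRNA 1 and 5.02 with dsRNA 2, against 5.01 in S2 control. Their log2 ratios were 0.01 (-0.02 to 0.04) and 0.00 (-0.02 to 0.03), and both intervals include 0. The size in embryos depends on the total used: scaled to contacts between chromosomes, the log2 ratios were -0.068, -0.047 and -0.040 in HP1-KD, HP1-rescue and H3K9M embryos. The order of HP1-KD and HP1-rescue embryos depends on it too. With contacts under 20 kb left out of the total, HP1-KD embryos lay farther below control than HP1-rescue embryos. Such contacts made up 32.4%, 41.9% and 37.0% of the balanced total in the 3 altered groups, against 38.7% in control embryos.

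The lower level in embryos was present in each arm pair. X with 2L averaged 4.48 in HP1-KD embryos, 4.28 in HP1-rescue embryos and 4.90 in H3K9M embryos, against 5.05 in control embryos. X with 3L averaged 5.11, 4.77 and 5.50 in the same 3 groups, against 6.02 in control embryos. X with 3R averaged 4.92, 4.70 and 5.40, against 5.85. Contact with 2L therefore stayed nearest to control, with log2 ratios of -0.17, -0.24 and -0.04, while 3L had -0.24, -0.34 and -0.13 and 3R had -0.25, -0.32 and -0.12. X with 2L was the lowest of the 3 arm pairs in all 4 embryo maps.

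**Figure D1:**
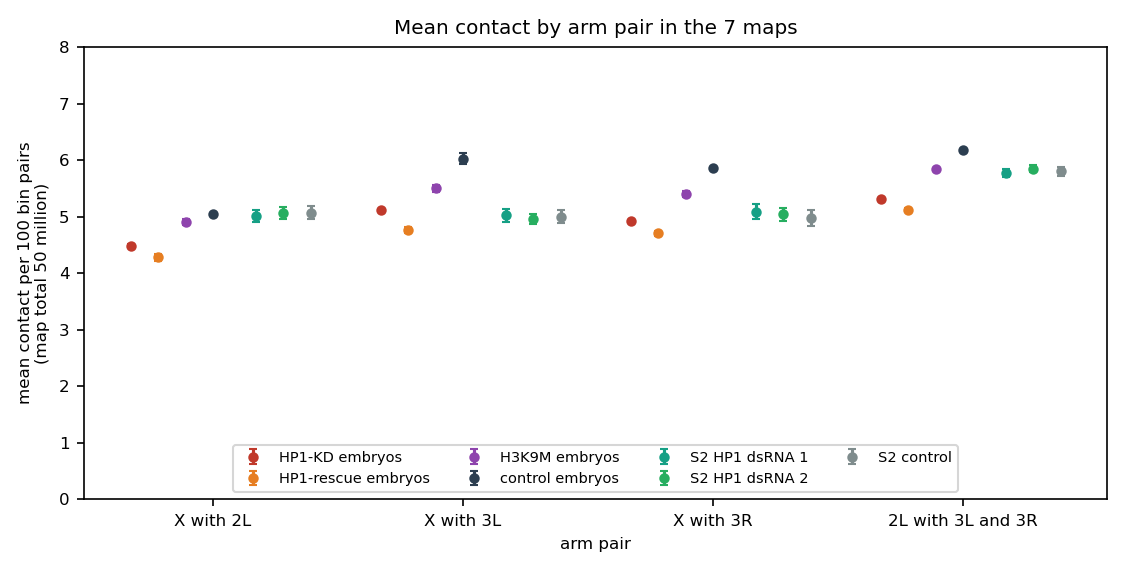
Mean contact per 100 bin pairs (vertical axis, map total 50000000) for X with 2L, 3L and 3R and for 2L with 3L and 3R, with 1 point per map and bars for the 95% counting interval. The embryo maps are spread, with control at 5.05, 6.02 and 5.85 for the pairs of X above the altered groups, while the 3 S2 maps lie between 4.96 and 5.09 for every pair of X.

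Contacts of 2L with 3L and 3R were lower to nearly the same degree, so against these pairs the difference was not particular to X. All of them use 2L, within which the maps of HP1-KD and HP1-rescue embryos also differed from control embryos, as described below. Pairs of 2L with 3L and 3R averaged 5.31 in HP1-KD embryos, 5.12 in HP1-rescue embryos and 5.84 in H3K9M embryos, against 6.17 in control embryos. Set against these pairs, the log2 ratio of X to control came to -0.01 in HP1-KD embryos (-0.02 to 0.00), -0.03 in HP1-rescue embryos (-0.05 to -0.01) and -0.02 in H3K9M embryos (-0.03 to -0.01). For S2 cells it was 0.02 with dsRNA 1 (-0.02 to 0.06) and -0.01 with dsRNA 2 (-0.04 to 0.03). Contact of X with autosomes was 0.913, 0.898 and 0.905 of that between autosomes in HP1-KD, HP1-rescue and H3K9M embryos, against 0.918 in control embryos. For S2 cells this share was 0.873 with dsRNA 1 and 0.859 with dsRNA 2, against 0.863 in S2 control.

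2 other measures stand beside these levels. The share of whole contacts that joined different chromosomes was 4.96% in HP1-KD embryos, 4.48% in HP1-rescue embryos and 5.34% in H3K9M embryos, against 5.601% in control embryos, and it was 5.30% and 5.35% with dsRNA 1 and dsRNA 2, against 5.26% in S2 control. Before balancing, a bin of X had 0.710, 0.722 and 0.677 of the contact ends of an autosome bin in HP1-KD, HP1-rescue and H3K9M embryos, against 0.736 in control embryos. The same measure was 0.530 and 0.539 with the 2 dsRNAs, against 0.535 in S2 control, which is lower than in any embryo map. Balancing sets all bins to 1 total and removes this difference from the means above. The part of copy number in the remaining differences was not tested.

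Where the contacts lie along the arms showed a clear order in embryos. Each bin was placed by its distance from the proximal border of its arm in the reference order. On 2L that order may not hold for HP1-KD and HP1-rescue embryos, as described below. The 10% of bins with the fewest entries in the control of the same source were left out here and in the results by 1-Mb window. The measure centred on equal distances and that of distal ends kept all bins. Results by offset, by part of the arm and by pair of 1-Mb windows used bins within 22 Mb of the border. This leaves out the end of X, 3L and 3R, which run to 22.5, 23 and 27.88 Mb from their borders. Contact peaked not where both bins were equally far from their borders, but where the autosome bin was 6 Mb farther out than the X bin. At that offset mean contact was 7.14 in HP1-KD embryos, 7.29 in HP1-rescue embryos and 8.03 in H3K9M embryos, against 9.47 in control embryos. At equal distances it was 5.53, 5.34 and 6.10, against 6.45, and with the X bin 6 Mb farther out it was 2.42, 1.91 and 2.62, against 2.25. Pairs of 2L with 3L and 3R peaked at an offset of 0 in the same maps, where they reached 9.21, 9.45 and 10.1 in the altered groups, against 12.05 in control embryos.

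**Figure D2:**
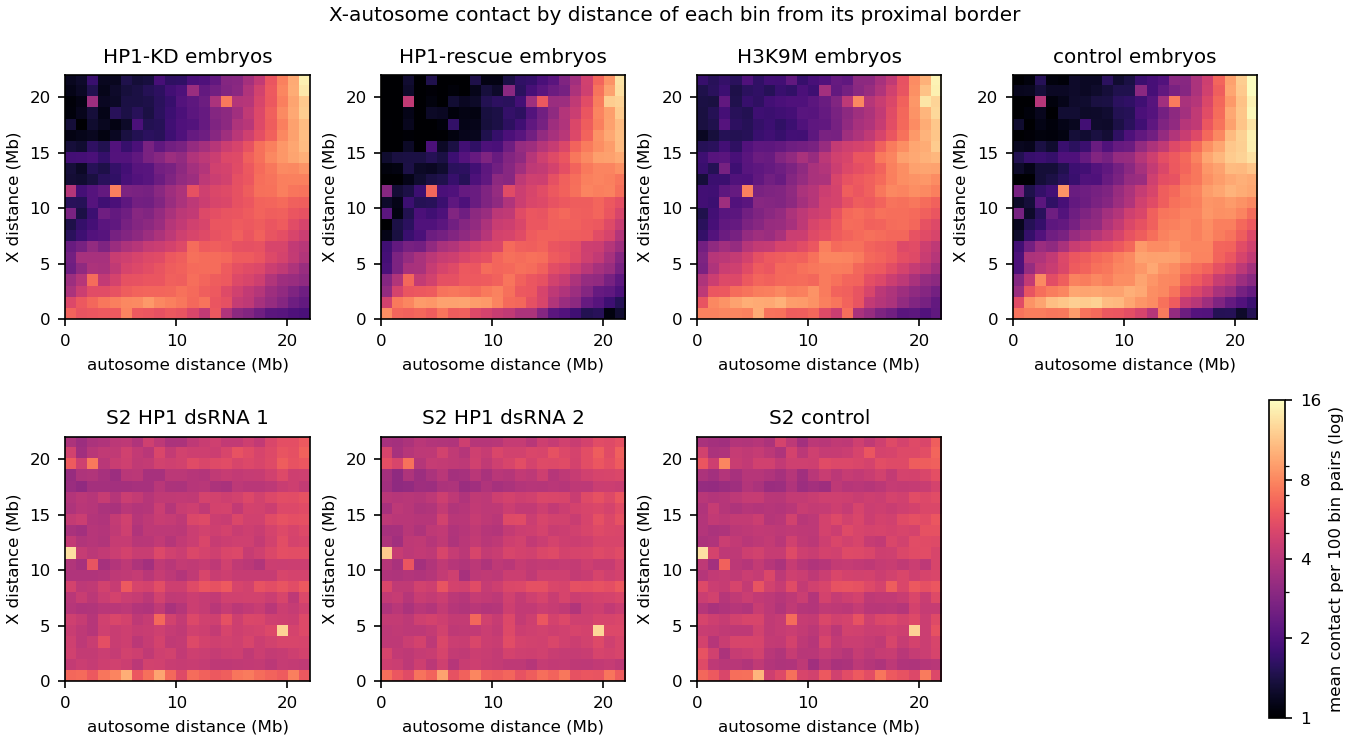
Mean contact per 100 bin pairs (colour, log scale) for 1-Mb steps of distance from the proximal border of X (vertical axis, Mb) and of the autosome (horizontal axis, Mb), 1 panel per map. In the 4 embryo maps a bright ridge runs to the right of the diagonal and ends in the upper right corner, where the axes stop at 22 Mb. The 3 S2 maps are nearly even.

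A measure centred on equal distances, with all bins kept, did not show this order. Bins whose distances differed by under 1 Mb had 1.38, 1.42 and 1.40 times the contact of bins whose distances differed by 5 Mb or more in HP1-KD, HP1-rescue and H3K9M embryos, against 1.43 times in control embryos. The log2 ratios to control were -0.05, -0.01 and -0.03, with intervals that include 0. In S2 cells the measure was 1.04 and 1.03 with the dsRNAs, against 1.02 in S2 control.

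The ridge could be followed along X. In control embryos X bins at 0 to 3 Mb from the border had their highest contact with autosome bins at 5 to 8 Mb, where it reached 10.49, against a mean of 6.88 over all autosome distances. X bins at 6 to 9 Mb peaked with autosome bins at 13 to 16 Mb, at 8.00, and those at 9 to 12 Mb with autosome bins at 17 to 20 Mb, at 8.97. From 12 Mb outward the peak stayed in the last window measured, at 19 to 22 Mb, with 12.3 for X bins at 18 to 21 Mb. The part of 3R beyond 22 Mb was not covered, so its peak may lie farther out. HP1-KD embryos had the peaks of the first and the third of these X classes in the same windows, at 7.33 and 6.74, and that of the second at 15 to 18 Mb, at 6.01. H3K9M embryos had all of these peaks in the same windows as control embryos, at 8.76, 6.73, 7.36 and 11.2. For X bins at 18 to 21 Mb the peak was 7.76, 9.77 and 7.09 times the lowest window in HP1-KD, HP1-rescue and H3K9M embryos, against 10.3 times in control embryos. In S2 cells the same ratio was 1.33 and 1.36 with the dsRNAs, against 1.37 in S2 control.

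The offset was measured by 2 mirrored bands, 1 with the autosome bin 4 to 8 Mb farther out than the X bin and 1 with the X bin 4 to 8 Mb farther out. The first band exceeded the second 2.70-fold in HP1-KD embryos, 3.52-fold in HP1-rescue embryos and 2.78-fold in H3K9M embryos, against 3.76-fold in control embryos. It did so 1.11-fold and 1.12-fold with dsRNA 1 and dsRNA 2, against 1.08-fold in S2 control. Each autosome arm showed the order. With 2L the 2 bands were at 7.08 and 2.20 in HP1-KD embryos and at 9.13 and 2.03 in control embryos. With 3L they were at 7.27 and 3.06 in HP1-KD embryos and at 9.80 and 2.95 in control embryos, and with 3R at 6.51 and 2.45 in HP1-KD embryos and at 8.69 and 2.36 in control embryos. With all bins kept, the ratios of the bands were 3.02, 3.87 and 3.10 in HP1-KD, HP1-rescue and H3K9M embryos, against 4.21 in control embryos.

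The altered groups were all below control on the ridge, and in HP1-KD and H3K9M embryos the difference changed sign on the side where the X bin lay farther out. In the band with the autosome bin 4 to 8 Mb farther out, the log2 ratio was -0.41 in HP1-KD embryos (-0.41 to -0.40), -0.37 in HP1-rescue embryos (-0.38 to -0.36) and -0.24 in H3K9M embryos (-0.24 to -0.23). Where the X bin was at least 10 Mb farther out, a class with little contact, mean contact was 1.499 in HP1-KD embryos, 1.19 in HP1-rescue embryos and 1.74 in H3K9M embryos, against 1.33 in control embryos. The log2 ratios there were 0.17 (0.16 to 0.18), -0.16 (-0.18 to -0.14) and 0.39 (0.37 to 0.40). On the other side of the ridge, where the autosome bin was at least 15 Mb farther out, mean contact was 3.34, 2.65 and 3.42 in HP1-KD, HP1-rescue and H3K9M embryos, against 3.404 in control embryos. The log2 ratios there were -0.03 (-0.04 to -0.01), -0.36 (-0.38 to -0.34) and 0.00 (-0.02 to 0.03). The HP1-rescue map was thus lower in all 3 classes. Among these classes, the HP1-KD and H3K9M maps were above control beyond counting error only where X lay farther out. In the last class the arms differed, with log2 ratios of 0.04 with 2L, -0.01 with 3L and -0.10 with 3R in HP1-KD embryos. They were 0.12, 0.03 and -0.12 in H3K9M embryos. Toward the end of that side, at an offset of 18 Mb, both maps were above control, at 2.85 and 2.84, against 2.51. In S2 cells the log2 ratios of the ridge band were 0.03 and 0.02, and those of the class with X at least 10 Mb farther out were -0.01 and -0.03.

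The arms were also divided into a proximal part (0 to 7 Mb from the border), a middle part (7 to 15 Mb) and a distal part (15 to 22 Mb). Distal X with distal autosome had 7.06 in HP1-KD embryos, 6.65 in HP1-rescue embryos and 7.56 in H3K9M embryos, against 8.42 in control embryos. Proximal X with the middle of the autosomes had 6.29, 6.37 and 7.03, against 8.23, and it had the lowest log2 ratio of the 9 combinations in HP1-KD embryos, at -0.39. Proximal X with distal autosome had 4.24, 3.71 and 4.44 in the same groups, against 4.96, with log2 ratios of -0.23, -0.42 and -0.16. Distal X with proximal autosome, the combination farthest from the ridge, had 1.38, 1.13 and 1.66, against 1.27, with log2 ratios of 0.12, -0.16 and 0.39. Among the 9 combinations, this one had the widest spread of log2 ratios between the 3 groups. In S2 cells distal X with proximal autosome had 4.10 with dsRNA 1 and 4.05 with dsRNA 2, against 4.11 in S2 control, all above any embryo map.

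**Figure D3:**
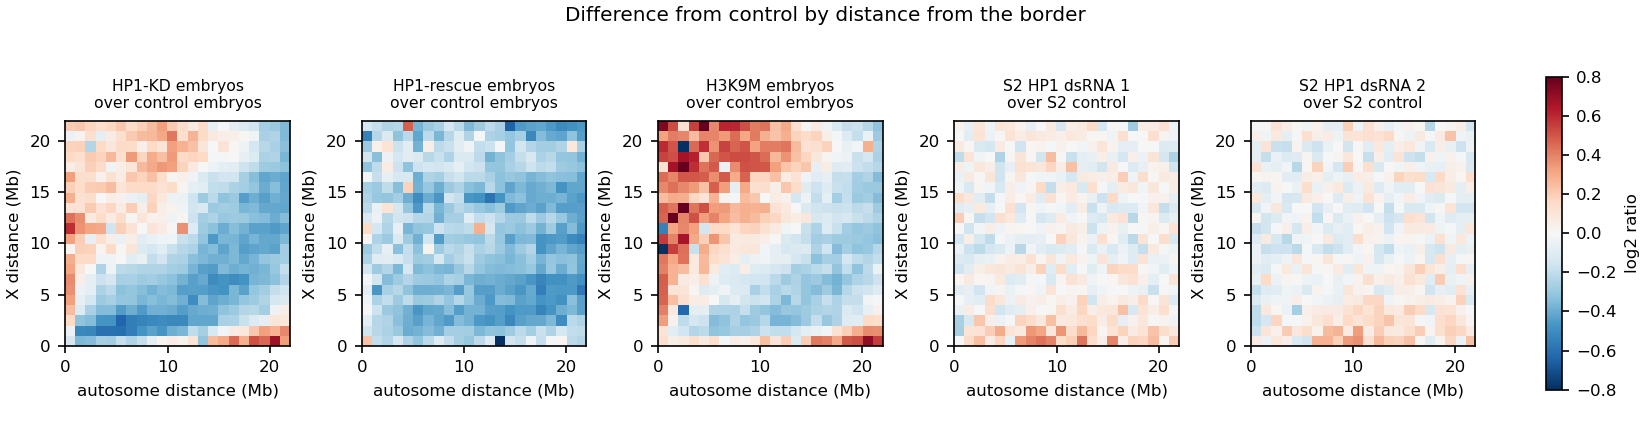
Log2 ratio of mean contact to the control of the same source (colour) by distance from the proximal border of X (vertical axis, Mb) and of the autosome (horizontal axis, Mb), 1 panel per comparison. HP1-KD and H3K9M panels are blue along the ridge (log2 -0.41 and -0.24) and red toward the upper left (0.17 and 0.39), the HP1-rescue panel is blue almost throughout, and both S2 panels are pale.

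Taken over pairs of 1-Mb windows, 390 of 1452 pairs of X with an autosome were at least 1.25-fold lower in HP1-KD than in control embryos, and 95 were higher by as much. Over all 2420 pairs between these chromosomes, which include 2L with 3L and 3R, 28.5% were lower and 5.58% higher, so X did not stand apart. In HP1-rescue embryos 665 pairs were lower and 7 higher, with 45.2% and 0.537% over all pairs. In H3K9M embryos the balance was turned round, with 118 pairs lower and 324 higher, and 6.4% and 20.8% over all pairs. In S2 cells 36 pairs of X were lower and 51 higher with dsRNA 1, of 43 and 52 over all pairs (1.78% and 2.15%). With dsRNA 2, 31 were lower and 39 higher, of 32 and 43 over all pairs (1.32% and 1.78%). Most of the few calls in S2 cells were thus pairs of X, for reasons that were not tested. The median log2 ratio over the pairs of X was -0.14, -0.31 and 0.01 in HP1-KD, HP1-rescue and H3K9M embryos, beside -0.16, -0.30 and -0.02 over all pairs.

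By position on X, all 23 windows had lower contact with autosomes in HP1-KD than in control embryos (log2 ratio -0.35 to -0.04) and in HP1-rescue embryos (-0.44 to -0.27), and 21 of 23 were lower in H3K9M embryos (-0.25 to 0.23). The window at 19 to 20 Mb, with 126 gene starts, had the lowest ratio in each of the 3 comparisons, which share their control map. Its mean contact was 5.05 in HP1-KD embryos, 4.76 in HP1-rescue embryos and 5.44 in H3K9M embryos, against 6.45 in control embryos. The window next to the border, at 22 to 22.5 Mb with 31 gene starts, had the highest ratio in HP1-KD embryos, with 4.70 against 4.85 in control embryos (log2 -0.04). It was also the highest in H3K9M embryos, with 5.70 (log2 0.23). The same window was the highest in S2 cells, with 4.17 for dsRNA 1 and 4.55 for dsRNA 2, against 3.63 in S2 control (log2 0.20 and 0.33). The lowest windows in S2 cells were 12 to 13 Mb (log2 -0.08 and -0.09) and 0 to 1 Mb (-0.05 and -0.07).

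The distal 500 kb of X and of the autosome arms, which end at telomeres, were measured with all bins kept. Their mean contact, with wide errors, was higher than in the classes above, which left out the bins with the fewest entries. It was 89.5 in HP1-KD embryos (SE 1.73), 83.3 in HP1-rescue embryos (SE 2.33) and 78.2 in H3K9M embryos (SE 3.17), against 154 in control embryos (SE 37.5). The control value rested on 3L, where it was 278, whereas with 2L it was 50.6, 51.7 and 40.4 in HP1-KD, HP1-rescue and H3K9M embryos, against 55.7 in control embryos. With 3R it was 128, 112 and 103, against 130. In S2 cells it was 38.0 with dsRNA 1 (SE 17.99) and 35.4 with dsRNA 2 (SE 14.4), against 16.7 in S2 control (SE 1.13), and the intervals of both log2 ratios include 0. Without balancing the log2 ratio of HP1-KD embryos was -0.073, beside -0.78 with it.

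Compartments were compared between chromosomes as observed over expected contact, the expected value coming from the arm pair and the distances of both bins from their borders. Bins were ranked by the first eigenvector of the control map, and the highest 20% (A, the gene-dense side) and the lowest 20% (B) were used. In control embryos the eigenvector had a correlation with gene starts of 0.39 on X, 0.28 on 2L, 0.27 on 3L and 0.27 on 3R. In S2 control it was 0.60, 0.59, 0.51 and 0.56 on the same arms. A and B were thus tied more weakly to gene density in embryos than in S2 cells. B bins of X met B bins of autosomes at 1.297 times the expected in HP1-KD embryos, 1.53 in HP1-rescue embryos and 1.36 in H3K9M embryos, against 1.36 in control embryos. A bins met A bins at 1.16, 1.15 and 1.20, against 1.24, and A met B at 0.790, 0.712 and 0.759, against 0.771. The B with B ratio of HP1-rescue embryos was above control on each arm, at 1.37 with 2L, 1.47 with 3L and 1.65 with 3R, against 1.27, 1.31 and 1.44 in control embryos. In HP1-KD embryos it was 1.23, 1.24 and 1.38 on the same arms, below control on each. In S2 cells B with B lay below the expected value, at 0.879 with dsRNA 1 and 0.916 with dsRNA 2, against 0.877 in S2 control, and A with A was at 1.04 and 1.08, against 1.01. Ranking the bins by gene density turned the log2 ratio of B with B in HP1-KD embryos to 0.02, beside -0.07 with the eigenvector.

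Genes that become active at this stage met each other across chromosomes more than genes in general did, and more so in HP1-KD and H3K9M embryos. The list held 8 genes of X, among them the sex-determination genes *sisA*, *sc* and *Sxl*, the gap and head genes *gt*, *btd* and *oc*, the pair-rule gene *run* and the cellularisation gene *nullo*, and 17 of the autosomes, all of them measured. Bins of X members met those of autosome members at 1.83 times the expected contact in HP1-KD embryos (SE 0.0757), 1.48 in HP1-rescue embryos (SE 0.113) and 1.95 in H3K9M embryos (SE 0.134), against 1.55 in control embryos (SE 0.0543). The log2 ratios to control were 0.24 (0.09 to 0.39), -0.07 (-0.30 to 0.17) and 0.33 (0.11 to 0.55). Over all protein-coding genes the observed over expected contact was 1.01, 1.00 and 1.03, against 1.06. Without the bins with the fewest entries the list had 1.99, 1.55 and 2.10, against 1.59. In S2 cells it was 0.863 and 1.05 with the dsRNAs, against 1.05 in S2 control, on 61, 77 and 52 contacts.

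Of the 8 X members, 7 were higher than control in HP1-KD and 7 in H3K9M embryos, and 4 in HP1-rescue embryos. Of 2168 protein-coding genes of X, measured with the same autosome members, 32.7% were higher in HP1-KD embryos, 43.4% in H3K9M embryos and 39.5% in HP1-rescue embryos. In S2 cells 4 and 5 of the 8 members were higher with dsRNA 1 and dsRNA 2 than in S2 control, beside 55.0% and 56.3% of all X genes. *run*, a Runx transcription factor, had the highest value, with 2.88 in HP1-KD embryos (SE 0.291), 2.00 in HP1-rescue embryos (SE 0.368) and 2.83 in H3K9M embryos (SE 0.456), against 2.15 in control embryos (SE 0.193). *gt*, a gap gene, had 2.26, 1.65 and 2.36 in the same groups, against 1.78. *oc*, a homeobox gene of the head, had 2.14, 1.53 and 2.53, against 1.83. *sc*, a proneural gene that also counts X chromosomes, was the exception, with 1.26, 0.940 and 1.27, against 1.35. Counting errors of single genes overlap between groups for most members. In HP1-KD and control embryos the gene pair of this list with the highest ratio, among pairs with at least 10 contacts, was *run* with *h* (hairy) of 3L, at 9.003 and 7.12 on 15 contacts in each map. It was *gt* with *tll* of 3R in HP1-rescue embryos, at 2.83, and *sc* with *sry-alpha* of 3R in H3K9M embryos, at 4.49. Of 136 pairs, 18 in HP1-KD, 2 in HP1-rescue, 4 in H3K9M and 31 in control embryos reached 10 contacts. Below that limit *run* with *h* was at 4.54 in HP1-rescue embryos (2 contacts) and at 10.1 in H3K9M embryos (6 contacts). The different named pairs therefore do not show a change between groups.

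2 further lists differed less between embryo groups. Polycomb targets, developmental regulators held silent by Polycomb proteins outside their domains of expression, were measured for 11 genes of X and 52 of autosomes. They had 1.21 in HP1-KD embryos, 1.36 in HP1-rescue embryos and 1.36 in H3K9M embryos, against 1.22 in control embryos. The log2 ratios were -0.01 (-0.12 to 0.09), 0.16 (0.004 to 0.31) and 0.16 (0.01 to 0.32). HP1-rescue and H3K9M embryos were thus above control beyond counting error. This list shares *sc* and *oc* of X and *tll* of 3R with the early genes, so the lists are not independent. In HP1-KD, HP1-rescue and H3K9M embryos 4, 7 and 7 of 11 X members were higher than control. This compares with 36.2%, 33.9% and 46.4% of all X genes with the same autosome members. With dsRNA 1 and dsRNA 2, 7 and 6 of the 11 were higher than in S2 control, beside 51.7% and 54.2% of all X genes. Of 572 gene pairs, 19 in HP1-KD, 5 in HP1-rescue, 2 in H3K9M and 61 in control embryos had at least 10 contacts. With the choice set by depth, the highest pair was not compared between maps. In H3K9M embryos *vnd* with *Doc2* of 3L was at 3.90 on 2 contacts, below that limit. Among pairs that reached it, *vnd*, a neural homeobox gene of X, formed the highest in each of the 4 maps. It did so with *tll* of 3R at 4.10 in HP1-KD embryos (71 contacts) and at 3.59 in H3K9M embryos (21 contacts). Its highest pair was with *Dr* of 3R in HP1-rescue embryos, at 6.08 (15 contacts), and with *Doc2* of 3L in control embryos, at 7.26 (16 contacts).

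Ribosomal protein genes, active in all cells, were measured for 13 genes of X and 49 of autosomes. They had 1.16 in HP1-KD embryos, 1.18 in HP1-rescue embryos and 1.26 in H3K9M embryos, against 1.297 in control embryos. The log2 ratios were -0.16 (-0.25 to -0.06), -0.14 (-0.28 to -0.01) and -0.04 (-0.18 to 0.09). In HP1-KD embryos the ribosomal protein genes were below control. So was the median of all X genes measured with the same autosome members, at 1.05 against 1.15 in control embryos. The lower value was thus not particular to this list, whereas the early genes were above control. *RpS14a* and *RpS14b* share their bins and count as 1, which leaves 12 X members. Of these, the number higher than control was 3 for HP1-KD embryos, 2 for HP1-rescue embryos and 5 for H3K9M embryos, beside 25.4%, 32.9% and 42.5% of all X genes. In S2 cells the list had 1.12 with dsRNA 1 (SE 0.0753) and 1.16 with dsRNA 2 (SE 0.0653), against 0.819 in S2 control (SE 0.0678), on 287, 369 and 168 contacts. Of the same 12 members, 10 and 12 were higher with dsRNA 1 and dsRNA 2 than in S2 control, beside 53.0% and 57.5% of all X genes. The histone gene cluster of 2L (chr2L:21416953-21541681) met X at 5.47, 4.30 and 3.27 times the expected contact in HP1-KD, HP1-rescue and H3K9M embryos, against 4.17 in control embryos, with SEs of 1.20, 3.02 and 1.44, against 0.702.

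Single places stood far above this fine-grained background. Pairs of 100-kb windows were considered where they held at least 30 contacts, and deeper maps had more such pairs. At least 10 times the expected value was reached by 113 of 16974 such pairs in HP1-KD embryos, 73 of 1545 in HP1-rescue embryos and 59 of 1081 in H3K9M embryos, against 142 of 58955 in control embryos. In S2 cells it was reached by 78 of 157 pairs with dsRNA 1 and 96 of 216 with dsRNA 2, against 61 of 95 in S2 control. With the number of pairs set by depth, these counts were not compared between maps. The 3 highest per map were resolved to 10-kb bins, and places whose X bin was among those with the fewest entries are not described further. The *w* and *v* bins were taken up after their values had been seen.

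The *w* bin (chrX:2790001-2800000) met a bin on 3R (chr3R:18910001-18920000) that holds *EndoA* (endophilin, of synaptic vesicle endocytosis), *Sgsh* and *Xrp1*. This pair had 1516 contacts in HP1-KD embryos, 707 in HP1-rescue embryos and 581 in H3K9M embryos, against 2997 in control embryos, which is 8.12, 9.36 and 9.13 CPM (contacts per 1000000 contacts of the map), against 10.0 CPM. It had 0 contacts in all 3 S2 maps, which allows at most 0.0650, 0.0553 and 0.0860 CPM with dsRNA 1, dsRNA 2 and in S2 control. All embryo groups thus shared it and S2 cells lacked it at this depth. The *w* bin also met a bin on 3L (chr3L:9680001-9690000) that holds *alphaTub67C*, the maternal alpha-tubulin, at 7.62, 10.95 and 9.70 CPM in the same groups, against 10.6 in control embryos, and with 0, 0 and 1 contacts in the S2 maps.

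The *v* bin (chrX:10920001-10930000) met a bin on 3L (chr3L:11060001-11070000) that holds the gene *SuUR* (Suppressor of Underreplication) in only 2 of the 7 maps. It had 1290 contacts in HP1-KD and 611 in HP1-rescue embryos, 0 in H3K9M embryos and 2 in control embryos, and 0 in each S2 map. That is 6.91 and 8.09 CPM in the groups that carry the hairpin, against 0.00667 CPM in control embryos (0.000808 to 0.0241), with up to 0.0472 CPM allowed in H3K9M embryos.

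The contacts of the *w* bin with 3R and of the *v* bin with 3L were one-sided. In HP1-KD embryos the *w* bin had 4011 contacts with bins within 200 kb of the 3R bin, whereas that 3R bin had 6 with bins within 200 kb of the *w* bin. Control embryos had 7054 and 4. The *v* bin had 1947 contacts with bins around the *SuUR* bin in HP1-KD embryos, against 28 in control embryos, and the reverse counts were 12 and 22. At these 2 places a single bin of X thus met a long stretch of the autosome, while its own neighbours on X did not. The contact of the *w* bin with 3L was narrower, with 1423 contacts in the *alphaTub67C* bin, 160 in the bin before it and at most 2 in any other bin within 200 kb in HP1-KD embryos, against 3186, 354 and at most 3 in control embryos. Whether the stocks carry transgenes with *w* or *v* at these autosomal places was not tested. If they do, these counts are not contacts of the X chromosome itself.

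A bin of X with the long non-coding RNA gene CR44765 and a gypsy5 element (chrX:11190001-11200000) had 3 such places. Its contact with a bin of 3L (chr3L:18460001-18470000) that holds *Met75Cb* was at 6.504 CPM in HP1-KD embryos, 6.21 in HP1-rescue embryos and 4.09 in H3K9M embryos, against 8.03 in control embryos, and at 0 contacts in the S2 maps. Its contact with the *Cdep* and *Gnf1* bin of 3R (chr3R:4910001-4920000) was at 4.76 and 3.44 CPM in HP1-KD and HP1-rescue embryos, against 3.29 in control embryos, with 3 contacts in H3K9M embryos and 1, 4 and 4 in the S2 maps. Its contact with a bin of 3R nearer the border (chr3R:4570001-4580000, *CG32945* and several transposons) was found in S2 cells, at 13.1 CPM with dsRNA 1 and 14.5 with dsRNA 2, against 11.6 in S2 control, with 13, 0 and 1 contacts in HP1-KD, HP1-rescue and H3K9M embryos, against 4 in control embryos. 1 repeat-bearing bin thus had different partners in embryos and in S2 cells. These contacts were one-sided too. In control embryos the X bin had 11908 contacts with bins within 200 kb of the *Met75Cb* bin, and the reverse count was 41. Around the *Cdep* and *Gnf1* bin the 2 counts were 3164 and 27, and around the *CG32945* bin they were 1124 and 1 in S2 control. Whether these are contacts of the X chromosome itself was not tested.

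The highest CPM of the named places was found in S2 cells, at a place with at most 2 contacts in any embryo map. The bin of *raskol*, a Ras GTPase-activating protein gene (chrX:17740001-17750000), met the bin of *eIF5B*, a translation initiation factor gene on 3L (chr3L:3450001-3460000), at 50.6 CPM with dsRNA 1 and 50.2 with dsRNA 2, against 52.0 in S2 control. Embryo maps had 1, 0 and 1 contacts there in HP1-KD, HP1-rescue and H3K9M, against 2 in control. This place lies at the offset of 15 Mb at which 2 of the 3 S2 curves had their highest point. It was one-sided as well. In S2 control the *raskol* bin had 4553 contacts with bins within 200 kb of the *eIF5B* bin, and the reverse count was 17. Whether these are contacts of the X chromosome itself was not tested.

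2 places showed the opposite side, a single autosome bin that met a stretch of X. The *Ssk* bin of 3L (chr3L:20180001-20190000; *Ssk* encodes a septate junction protein of the gut) met the bin of *Syx4* and *kirre* on X (chrX:2740001-2750000) at 1.80 CPM in HP1-KD and 2.23 in HP1-rescue embryos, against 2.86 in control embryos, with 1 contact in H3K9M embryos. It was at 4.64 and 5.11 CPM with the dsRNAs, against 3.96 in S2 control. The *Pka-R1* bin of 3L (chr3L:20820001-20830000), which carries an FB element, met the bin of *Met*, a juvenile hormone receptor gene, and *Ptp10D* on X (chrX:11620001-11630000). This pair was at 0.380 CPM in HP1-KD embryos, 0.238 in HP1-rescue embryos and 1.43 in H3K9M embryos, against 0.457 in control embryos, and at 1.93 and 1.97 with the dsRNAs, against 2.15 in S2 control.

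**Figure D4:**
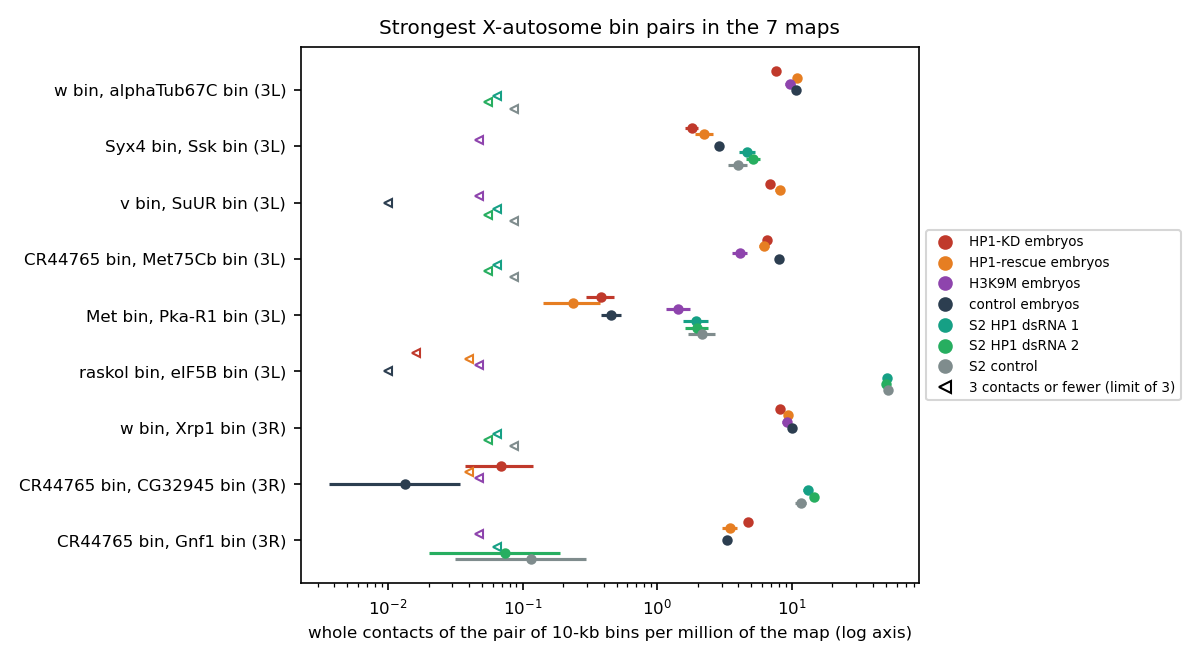
Whole contacts of named pairs of 10-kb bins as CPM (horizontal log axis), with exact 95% Poisson intervals, 1 row per pair and 1 colour per map; open triangles mark maps with 3 contacts or fewer at their limit of 3. The *v* and *SuUR* row has points for HP1-KD (6.91) and HP1-rescue embryos (8.09) alone, and the *raskol* and *eIF5B* row has points for the S2 maps alone, near 50.

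The paper that reported these data describes a 2L inversion in HP1-KD and HP1-rescue embryos. Its extent was not tested here. The maps of these groups also differed from the others within that arm. Bins inside an inversion have wrong distances here, which bears on all results by distance that include 2L. Windows at 7.2 and 12.3 Mb of 2L had 19.5 CPM in HP1-KD and 9.88 in HP1-rescue embryos, against 0.409 in H3K9M and 0.410 in control embryos. At the same distance along the arm this was 33.2-fold and 24.3-fold over control. In the stretch between these windows, the part nearer the telomere preferred distal over proximal X more than the part nearer the centromere did, by 0.34 on the log2 scale in HP1-KD embryos (0.28 to 0.39), 0.67 in HP1-rescue embryos (0.57 to 0.78) and 0.71 in H3K9M embryos (0.61 to 0.80), against 0.87 in control embryos (0.82 to 0.92). HP1-KD embryos thus had the weakest order along this stretch. How far the inversion shapes this order or the log2 ratios of X with 2L was not tested. The ratios of X with 3L and 3R do not use that arm. In the ridge band 3L and 3R had log2 ratios of -0.43 and -0.42 in HP1-KD embryos. They had -0.38 and -0.35 in HP1-rescue embryos.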

How the data were processed

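Hi-C libraries were pooled by group by the authors, and 1 map per group was deposited. The deposited values are a signal, iteratively corrected contacts between 10-kb bins (dm6), and each map sums to 50000000 within rounding. The submitters' processing notes name HiC-Pro 2.11.1. Iterative correction multiplies contacts by 1 factor per bin, so whole contacts were recovered, and 100% of values under 20 contacts came out whole within 0.02. The 7 maps thus gave 34865771 to 299686858 contacts. The S2 control map was assigned by its name alone, and the name of the map for HP1-KD may mean that some of the 5 libraries were left out.

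Maps were scaled to the same total over the long arms and chromosome 4, and mean contacts were taken by arm pair and by distance from the border. Counting SEs propagate the bin factors through Poisson errors, intervals are ±1.96 SE, and single bin pairs have exact 95% Poisson intervals. Expected contact came from the arm pair and 2-Mb distance classes. Each gene was measured over 3 bins around its start.

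The members and lists were chosen with earlier results of these data known. Named windows were the 2 highest and 2 lowest 1-Mb windows of X per comparison. Named places were the 3 window pairs of 100 kb with the highest observed over expected contact per map, at least 500 kb apart. Named gene pairs were the highest of each list among pairs with at least 10 contacts in the map. In 484 simulated window pairs of X with 2L, 100% of the raised and 100% of the lowered pairs were found. The simulation had the depth of the control embryo map, the deepest one, and changes larger than the 1.25-fold limit. It held counting error only, so it does not show how well changes near that limit are found in the shallower maps.

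Alternatives were equal depth, no balancing, other totals, borders, distance limits, bin sets and rankings, and leaving out 2L. After the data had been seen, the offset bands, the removal of window pairs at 10 times the expected contact, and the lists and places without sparse bins were added. Calculations ran in Python 3.11.15 with pandas 2.3.3, numpy 2.4.6 and scipy 1.17.1, and figures were drawn in matplotlib 3.10.9.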

Additional observations from a re-analysis of the deposited data

How the results depend on the processing

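Of 240 alternative values, 192 moved by less than the larger of the SD over the 3 arm pairs and the counting interval. For distal ends this limit was wide, and 25 of 25 values stayed within it. In HP1-KD embryos their log2 ratios were -0.14 with 2L, -1.62 with 3L and -0.03 with 3R. The tally thus says little about that measure. No paired analysis was possible because each group was a single pooled map. Depth limits single gene pairs, of which the named ones rest on 10 to 71 contacts. The log2 ratios of distal ends in S2 cells were 1.18 with dsRNA 1 and 1.08 with dsRNA 2. They turned to -0.060 and -0.20 without balancing and to -0.17 and -0.15 without the 10% of bins with the fewest entries. These shifts too were within the limit above. The comparison with 2L with 3L and 3R could not be made without 2L. Causes of the shifts below were not tested, beyond what each setting leaves out.

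The log2 ratio of mean contact depended on the total used. Scaled to contacts between chromosomes it was -0.068 in HP1-KD embryos, -0.047 in HP1-rescue embryos and -0.040 in H3K9M embryos. Against the contact expected from other chromosomes it was -0.024, -0.0068 and -0.045 in the same groups. Without contacts under 20 kb in the total it was -0.37 in HP1-KD and -0.23 in HP1-rescue embryos, and 0.083 with dsRNA 1 and 0.095 with dsRNA 2. Without balancing, mean contact was at -0.39 in HP1-rescue and -0.16 in H3K9M embryos and at 0.060 and 0.067 with the dsRNAs, and H3K9M embryos were at -0.11 relative to contacts between autosomes. With window pairs at 10 times the expected contact left out it was -0.22, -0.29 and -0.086 in HP1-KD, HP1-rescue and H3K9M embryos.

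Alignment in HP1-KD embryos was 0.0465 without balancing. By the offset bands it was -0.48 in HP1-KD and -0.44 in H3K9M embryos and 0.090 with dsRNA 1.

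Of the compartment measures, B with B moved in 13 of 35 values and was reversed in 1, A with A moved in 7 of 35 and A with B in 8 of 35, beside 14 of 45 for mean contact. B with B without balancing was -0.016 in HP1-KD embryos, 0.079 in HP1-rescue embryos and 0.044 in H3K9M embryos and -0.078 with dsRNA 2. Ranked by gene density it was reversed to 0.024 in HP1-KD embryos, and was 0.022 in HP1-rescue and -0.065 in H3K9M embryos, -0.079 with dsRNA 1 and -0.12 with dsRNA 2. With 10% of bins per class it was -0.13 in HP1-KD and -0.0345 in H3K9M embryos and 0.19 with dsRNA 2, and without the bins with the fewest entries it was -0.052 in HP1-KD and 0.029 in H3K9M embryos. A with A at equal depth was -0.10 in HP1-KD and -0.072 in H3K9M embryos, and without balancing it was -0.040 in HP1-KD embryos, -0.012 in HP1-rescue embryos and -0.024 in H3K9M embryos. It was -0.0805 in HP1-KD embryos without the bins with the fewest entries and 0.13 with dsRNA 2 at 10% of bins. A with B was 0.086 in HP1-KD embryos without balancing. In HP1-rescue embryos it was -0.091 without the bins with the fewest entries, -0.040 by gene density and -0.16 at 10% of bins. At 10% of bins it was -0.057 in H3K9M embryos, 0.14 with dsRNA 1 and 0.046 with dsRNA 2, and by gene density it was 0.036 with dsRNA 2.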
